A study of Neocallimastix californiae and Anaeromyces robustus with 43 samples.

Results

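Anaeromyces robustus, labelled S4, is an anaerobic gut fungus whose transcriptome was sequenced after growth on corn stover and on glucose. The comparison uses 5 libraries, chosen by their labels alone: 2 from cultures with corn stover as the energy source (corn stover 1 and 2) and 3 from cultures with glucose (glucose 1 to 3). They belong to 20 A. robustus libraries over 7 carbon sources, in a series of 43 libraries that also holds Neocallimastix californiae, which was not used here. The other 15 A. robustus libraries, 3 each on reed canary grass, switchgrass, Avicel, cellobiose and maltose, enter as groups that corn stover was set against and through the filter on low counts, the scaling and the estimate of the spread. All 20 came from whole organisms in about 10 ml of Medium C at 39 °C, harvested in exponential growth once gas pressure reached at least 5 psi. The labels name no genetic change in any group and do not say whether replicates were separate cultures, so the p-values refer to differences among libraries that may be technical repeats.

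Anaerobic gut fungi live in the digestive tract of herbivores and penetrate plant tissue with root-like rhizoids. They secrete cellulases, hemicellulases, esterases and other enzymes that take plant cell walls apart, some of them held together in multienzyme complexes called cellulosomes, and they ferment the sugars released. Corn stover, the stalks and leaves of maize left after harvest, offers carbon as cellulose and hemicellulose in a lignified wall, whereas glucose is a soluble sugar that needs no breakdown outside the cell. Reed canary grass and switchgrass are also whole grasses, Avicel is purified microcrystalline cellulose, cellobiose is the disaccharide unit of cellulose, and maltose is the corresponding unit of starch. The question the comparison answers is which transcripts differ in abundance when the fungus lives on a whole grass in place of a simple sugar. The files do not pair the transcript identifiers with gene names, so no transcript below can be assigned to an enzyme or any other function, and the labelled organism was not checked against marker genes.

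The deposited values are expected counts, estimated numbers of reads per transcript, and TPM, the same estimates corrected for transcript length. The 2 corn stover libraries held 18312432 and 18282639 expected counts, and the 3 glucose libraries held 15397134, 11789612 and 14525337. The table lists 17127 transcripts from 16038 loci, and 10316 transcripts had enough counts to be tested. Levels of single transcripts are given as CPM, counts per 1e+06 counts after scaling by TMM, a method that assumes most transcripts are unchanged. Its factors were 1.32 and 1.498 on corn stover and 1.05, 0.884 and 0.776 on glucose. A transcript is called where the adjusted p of edgeR's quasi-likelihood test, corrected over all 10316 transcripts by Benjamini and Hochberg, is under 0.05. Log2 fold changes are followed by their standard error.

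The corn stover libraries ranked the tested transcripts alike, with a Spearman correlation of 0.969 between them over transcripts. They did not stand apart from the other grasses. Their correlations ran from 0.964 to 0.985 with reed canary grass and from 0.95 to 0.976 with switchgrass. Among the glucose libraries the correlation was 0.937 for glucose 1 and 2, 0.946 for 1 and 3 and 0.913 for 2 and 3. Glucose 2 was thus in both of the lower pairs. Glucose 3 stood nearer to corn stover than the other glucose libraries did: its correlations with corn stover 1 and 2 were 0.873 and 0.862, against 0.781 and 0.761 for glucose 1 and 0.823 and 0.788 for glucose 2. These correlations are descriptions over transcripts of the same libraries and carry no test. Among the other carbon sources, maltose 3 and Avicel 1 stood apart in the same fit. Maltose 3 held 1946186 expected counts with a TMM factor of 0.178, and Avicel 1 had a TMM factor of 0.273.

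On corn stover 2385 of the 10316 tested transcripts were higher than on glucose (23.1%) and 1342 were lower (13%), so that 3727 differed in all (36.1%). In whole cultures, fewer cells in a given state and less of a transcript per cell cannot be told apart. At an unadjusted p under 0.05 there were 4629. The transcripts called higher had a median log2 fold change of 2.78 and those called lower a median of -1.87, while the median over all tested transcripts was 0.05. The rises were the more numerous and the steeper: 979 transcripts were called higher by at least 8-fold and 208 were called lower by at least 8-fold. Without corn stover 2, 1669 transcripts were called higher and 478 lower, and without corn stover 1, 1954 were called higher and 693 lower. Without glucose 1 the calls were 1755 higher and 853 lower, and without glucose 2 they were 2332 higher and 1565 lower. Leaving out glucose 3 gave 2337 higher and 1059 lower.

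The balance between the 2 directions depended on how the libraries were scaled. With library size alone 2641 transcripts were called higher and 274 lower, and with DESeq2's size factors inside edgeR 3171 were called higher and 834 lower. DESeq2 itself called 3214 higher and 1009 lower. The median log2 fold change over all tested transcripts was 0.69 with library size and 0.47 with DESeq2's size factors, a shift of 0.64 between TMM and library size, and the TMM values are relative to it. No transcript called under TMM was called in the opposite direction in any of the settings in which the same transcripts were followed.

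**Figure D1:**
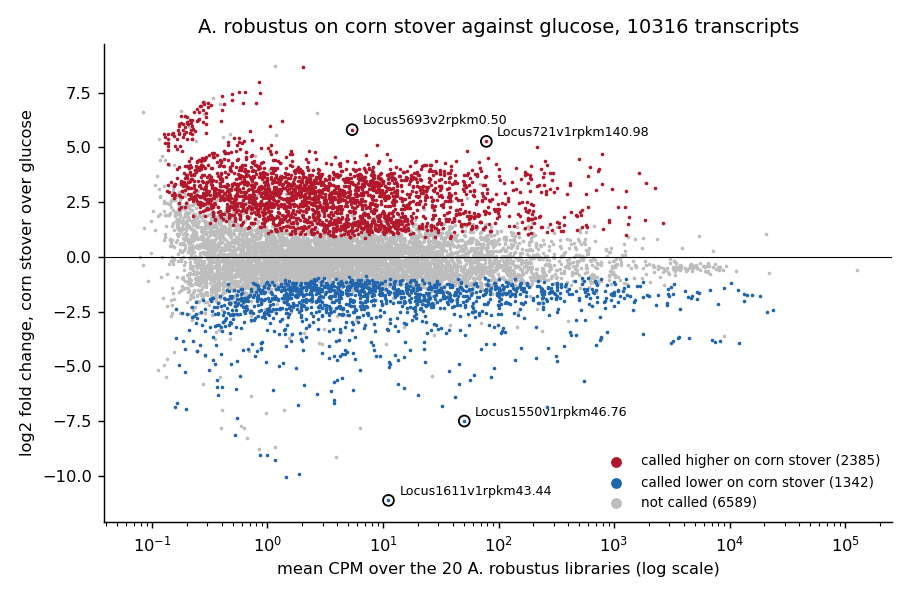
Fitted log2 fold change of corn stover over glucose (vertical axis) against mean TMM-scaled CPM over the 20 A. robustus libraries (horizontal axis, log scale) for the 10316 tested transcripts. Red points are the 2385 called higher on corn stover, blue points the 1342 called lower, and circles mark the 4 transcripts named in the text. Some points, Locus1611v1rpkm43.44 among them, have no counts in one group, and their fitted value depends on the small count that the model adds.

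Rises were found in every class of abundance, and falls were most frequent among the most abundant transcripts. The median level of the transcripts called higher was 4.82 CPM on corn stover and 0.815 CPM on glucose. For the transcripts called lower the median was 3.44 CPM on corn stover and 13.5 CPM on glucose, and for those not called it was 3.35 CPM on corn stover and 3.44 CPM on glucose. Of the 979 transcripts higher by at least 8-fold, 645 had a mean under 10 CPM on corn stover, and 334 reached at least 10 CPM there. Of the 208 transcripts lower by at least 8-fold, 112 had a mean of at least 10 CPM on glucose. No counts were found in any glucose library for 125 of the tested transcripts, and 81 of these were called higher. For 44 of the tested transcripts there were none in either corn stover library, and 13 of these were called lower. A transcript with no counts in a group can only be called lower in that group, so the direction of these calls adds nothing.

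Sorted by mean level over all 20 libraries, the share of transcripts called higher fell step by step with abundance and the share called lower grew. Among the 2714 tested transcripts under 1 CPM, 25.9% were called higher and 7.66% lower. The 4250 transcripts between 1 and 10 CPM had 25.01% called higher and 12.7% lower. The next class, 2409 transcripts between 10 and 100 CPM, had 20.5% called higher and 14.0% lower. Between 100 and 1000 CPM the order of the 2 directions turned, with 15.2% of 744 transcripts called higher and 26.1% called lower. Above 1000 CPM 11 of 199 transcripts were called higher (5.53%) and 61 were called lower (30.7%). With library size alone the turn came later: between 100 and 1000 CPM 122 were called higher and 38 lower, and above 1000 CPM 15 were called higher and 24 lower. Without glucose 3 the turn stood in the same class, with 103 called higher and 138 lower between 100 and 1000 CPM.

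**Figure D2:**
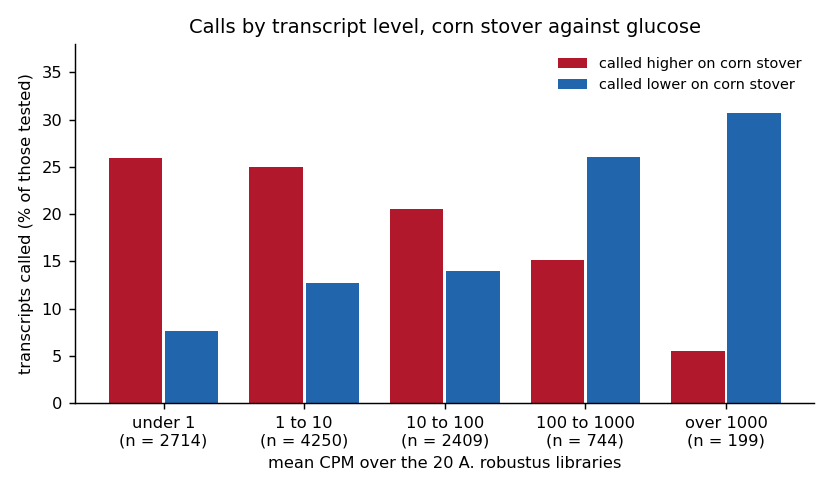
Share of tested transcripts called in each of 5 classes of mean CPM over the 20 A. robustus libraries, with the number of transcripts in each class under its bars. Red bars give the transcripts called higher on corn stover, which run from 25.9% in the rarest class to 5.53% in the most abundant, and blue bars those called lower, which run from 7.66% to 30.7%.

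The same contrast showed in whole libraries. The 10 most abundant transcripts of each library took 10.1 and 10.8% of the expected counts on corn stover, against 17.5, 17.3 and 17.2% on glucose. The 100 most abundant took 51.3 and 48.8% on corn stover, against 55.8, 59.6 and 59.2% on glucose. At least 1 TPM was reached by 7450 and 7934 transcripts on corn stover, against 6019, 5385 and 5573 on glucose. The groups did not overlap in any of these 3 measures, with differences of -6.93 points, -8.11 points and 2033 transcripts. Each gave an exact two-sided permutation p of 0.1, which is also the smallest that 2 against 3 libraries allow, and 0.1 after adjustment over the 3. Measured in TPM, the differences in the shares of the top 10 and top 100 were -3.14 and -3.23 points.

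Of the 100 transcripts with the highest mean TPM on corn stover, 2 were called higher there than on glucose and 12 lower, beside 23.1% and 13% of all tested transcripts. Of the 100 highest on glucose, 0 were called higher on corn stover and 33 lower, and 77 transcripts stood in both lists. These counts were made with the TMM calls only. As given above, library size alone left fewer falls among abundant transcripts, with 15 higher and 24 lower above 1000 CPM. The 2385 transcripts called higher took 14.3 and 17.7% of the expected counts on corn stover, against 1.41, 1.76 and 2.31% on glucose. The 1342 called lower took 19.6 and 17.5% on corn stover, against 49.1, 40.8 and 46.4% on glucose. These shares restate the calls in another unit and are no separate evidence for them.

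The most abundant of the transcripts called higher on corn stover reached 2643 and 5486 CPM there, against 78.2, 139.6 and 634.9 CPM on glucose. Its lowest corn stover library was above its highest glucose library, and glucose 3 was the highest of the 3. The log2 fold change was 3.84 ± 0.62 (SE, edgeR adjusted p = 0.00013), and 5.22 without glucose 3 (adjusted p = 7.84e-07). The second, at 3056 and 3906 CPM on corn stover against 600.2, 1957 and 1057 CPM on glucose, differed less. Its log2 fold change of 1.53 ± 0.52 (SE, edgeR adjusted p = 0.0245) lost the call when corn stover 1, corn stover 2, glucose 1 or glucose 3 was left out (adjusted p = 0.0646, 0.161, 0.115 and 0.0699), and when only the corn stover and glucose libraries were fitted (0.0529).

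Transcripts that fell were several times more abundant still. The most abundant on glucose of those called lower had 6965 and 5899 CPM on corn stover, against 30843, 33370 and 38607 CPM on glucose. Its log2 fold change was -2.41 ± 0.39 (SE, edgeR adjusted p = 0.000144). A second had 5153 and 3730 CPM on corn stover, against 21816, 26423 and 28588 CPM on glucose (log2 fold change -2.53 ± 0.57, SE, edgeR adjusted p = 0.0018). Both held their call in each setting in which they were refitted, and in both every glucose library was far above both corn stover libraries.

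By a rule of size, the 2 called transcripts with the largest rise and the 2 with the largest fall are named with their identifiers. The rule takes transcripts with a mean of at least 10 CPM in the higher group and no overlap between the libraries of the groups. Locus721v1rpkm140.98 had 453 and 246.5 CPM on corn stover, against 1.11, 0.48 and 25.5 CPM on glucose. The corn stover libraries were both far above every glucose library, and glucose 3 was far above the other two. The log2 fold change was 5.28 ± 1.19 (SE, edgeR adjusted p = 0.0026), and 8.72 ± 1.00 (adjusted p = 1.38e-06) without glucose 3. On the other grasses it averaged 157 ± 44.6 CPM (reed canary grass) and 81.8 ± 17.3 CPM (switchgrass), with 22.6 ± 6.06 CPM on Avicel and 8.93 ± 0.317 CPM on cellobiose (SD, n = 3 each). Maltose 1, 2 and 3 had 2.40, 1.67 and 26.9 CPM, the last from 9 expected counts.

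Locus5693v2rpkm0.50 was a rarer transcript with 17.6 and 14.0 CPM on corn stover. In glucose 1, 2 and 3 its level after rounding was 0, 0 and 0.887 CPM, which rests on 10.37 expected counts over the 3 libraries. The log2 fold change of 5.81 ± 1.12 (SE, edgeR adjusted p = 0.000821) became 5.09 without glucose 1, and without glucose 3 the remaining libraries hold almost no counts and give no usable size. Another version of the same locus, v1, moved with it: 593.83 and 691.92 expected counts on corn stover, against 2.88, 8 and 41.75 on glucose. The reads of such versions overlap, which makes the values of each one uncertain.

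Locus1550v1rpkm46.76 had the largest fall by this rule among transcripts with counts in both groups. It had 2.86 and 0.475 CPM on corn stover, against 385, 45.7 and 467 CPM on glucose, where glucose 2 was about an order of magnitude below the others and still above both corn stover libraries. The log2 fold change was -7.49 ± 1.47 (SE, edgeR adjusted p = 0.000888), -9.29 without corn stover 1 and -6.69 without corn stover 2. Outside glucose this transcript was found mainly on maltose (34.2 ± 30.0 CPM), while reed canary grass, switchgrass, Avicel and cellobiose averaged 0.0912, 2.06, 0.163 and 0.0869 CPM (n = 3 each).

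Locus1611v1rpkm43.44 had no counts in corn stover 1 or 2, against 26.9, 1.73 and 14.6 CPM on glucose. Set against 3 counts over the 2 corn stover libraries, the most that a count of 0 allows, it was at least 248-fold lower on corn stover, a bound that covers counting error only. The bound was 140-fold without glucose 1, 132-fold without corn stover 1 and 116-fold without corn stover 2, where fewer counts stand behind the 0. The edgeR adjusted p was 0.027 with the 3 glucose libraries spread over an order of magnitude. The call was lost without corn stover 1 (0.123), corn stover 2 (0.145) or glucose 1 (0.0642). It was at 155 CPM in maltose 3, from 52.39 expected counts, and between 0 and 4.08 CPM in the other libraries off glucose. In TPM it had 784, 42.9 and 280 in glucose 1, 2 and 3, and 193 in maltose 3. Switchgrass had 104, 211 and 132 TPM and cellobiose 191, 29.6 and 200 TPM, within the range of glucose. Reed canary grass, Avicel and the other maltose libraries had 0 to 79.8 TPM.

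**Figure D3:**
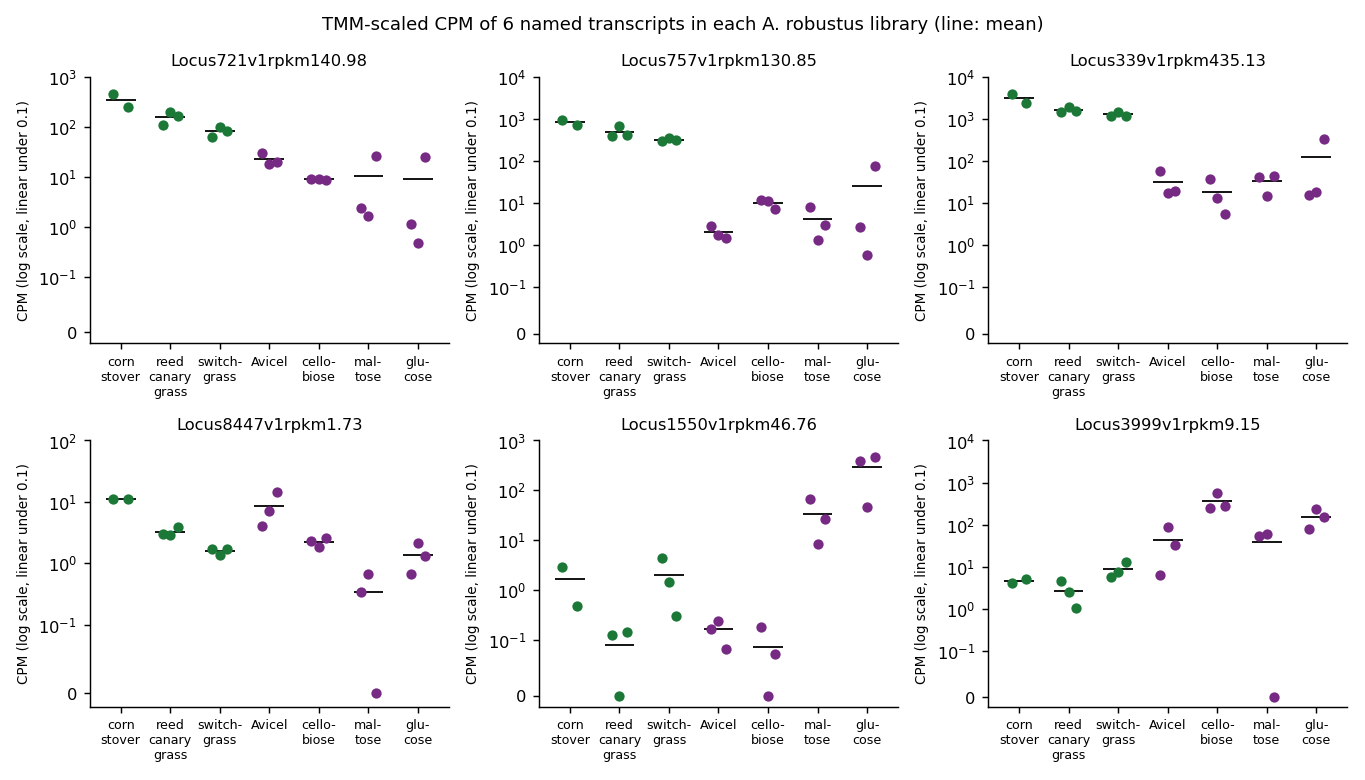
TMM-scaled CPM (vertical axis, log scale, linear under 0.1) of 6 named transcripts in each A. robustus library, by carbon source, with corn stover at the left and glucose at the right. Each point is 1 library and each bar the mean of a group; whole grasses are green and the other carbon sources purple. The first 3 panels stand high on the 3 grasses, with glucose 3 above the other glucose libraries, Locus8447v1rpkm1.73 is at 11.3 and 11.1 CPM on corn stover, and the last 2 panels are highest on glucose and on cellobiose.

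The position of glucose 3 in the transcripts named as higher was shared by many of those called higher. In 1716 of the 2385 transcripts called higher on corn stover (72.0%), glucose 3 was the highest of the 3 glucose libraries, as it was in 42.9% of all tested transcripts. Its median log2 difference from the other two was 1.03 over the transcripts called higher and 0.23 over all tested. Why glucose 3 was higher in these transcripts was not tested. Without it, 2183 of the 2385 were still called higher and 1029 of the 1342 still called lower.

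The levels of the called transcripts on the other carbon sources were read next, from libraries that were in neither group compared, and entered the calls through the filter on low counts, the scaling and the shared spread. Those called higher took 14.3 and 17.7% of the expected counts on corn stover, 15.6 to 17.2% on reed canary grass, 15.6 to 16.2% on switchgrass, 8.41 to 9.21% on cellobiose, 3.40% in Avicel 1, 6.43 and 6.81% in the other Avicel libraries, 0.316 to 1.58% on maltose and 1.41 to 2.31% on glucose. By this share the other grasses overlapped with corn stover, and maltose overlapped with glucose. Cellobiose and Avicel lay between corn stover and glucose in it without overlapping either. The median level of the same transcripts was 4.82 CPM on corn stover, 4.69 on reed canary grass, 4.74 on switchgrass, 2.54 on cellobiose, 0.796 on Avicel, 0.243 on maltose and 0.815 on glucose. Without Avicel 1 the median was 0.813 CPM on Avicel, and without maltose 3 it was 0.339 on maltose. Glucose gave 0.454 CPM without glucose 3, the library nearest to corn stover. By median, Avicel was thus slightly below glucose with all libraries and above it without glucose 3.

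The transcripts called lower took 19.6 and 17.5% of the expected counts on corn stover, 19.1 to 20.9% on reed canary grass, 18.2 to 19.0% on switchgrass, 29.3 to 30.8% on cellobiose, 25.6% in Avicel 1, 36.9 and 35.4% in the other Avicel libraries, 23.2% in maltose 3, 45.3 and 47.1% in the other maltose libraries and 40.8 to 49.1% on glucose. The other grasses again lay beside corn stover.

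**Figure D4:**
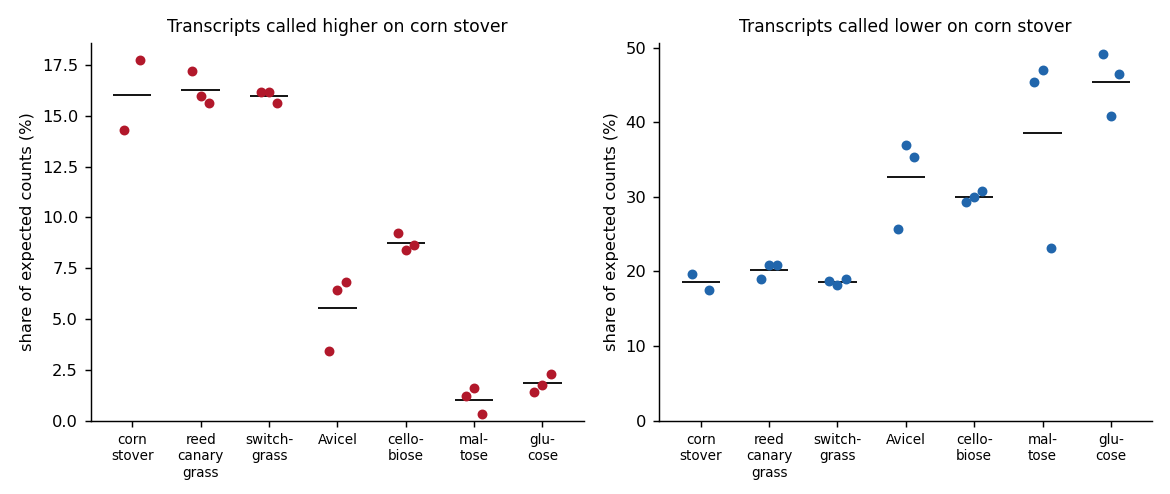
Share of a library's expected counts (vertical axes, %) held by the 2385 transcripts called higher (left) and the 1342 called lower (right) on corn stover against glucose, in each of the 20 A. robustus libraries; points are libraries and bars group means. The corn stover and glucose values follow from the choice of the transcripts, and the other 15 libraries show the grasses beside corn stover at 15.6 to 17.2% on the left and at 18.2 to 20.9% on the right.

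A grass against a sugar can also be set in libraries that the corn stover and glucose comparison does not contain: reed canary grass and switchgrass, 6 libraries, against 3 on maltose. There 3480 of the 10316 transcripts were called higher on the grasses (33.7%) and 1612 lower (15.6%), in all 5092 (49.4%). Of the 2385 transcripts called higher on corn stover than on glucose, 2181 were called higher there (91.4%, and 62.7% of the 3480) and 0 lower. Of the 1342 called lower, 809 were called lower there (60.3%, and 50.2% of the 1612) and 6 higher. Set beside the 33.7% and 15.6% of all tested transcripts, both shares are well above the background. The median log2 fold change there was 3.89 for the transcripts called higher, -1.31 for those called lower and 0.56 over all tested.

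These shares changed little without maltose 3, the shallow library: 90.5% of the transcripts called higher and 66.7% of those called lower, beside 32.8% and 18.8% of all tested. With library size alone 99.2% of 2641 and 56.6% of 274 were shared in direction, beside 69.6% and 2.91% of all tested, so that the upward share lies nearer to the background under that scaling. These fits still share their filter, scaling and estimate of the spread with the corn stover comparison.

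Corn stover was then tested directly against the grasses and the cellulose substrates, without glucose. These tests share the corn stover libraries with the comparison above and with each other, so their values for the same transcripts are set side by side as a description. The 2385 transcripts called higher against glucose, with a median log2 fold change of 2.78 there, had medians of 0.04 against reed canary grass, 0.14 against switchgrass, 2.84 against Avicel and 1.01 against cellobiose. The 1342 called lower, with a median of -1.87 against glucose, had medians of -0.08, -0.20, -1.01 and -0.66 in the same order. Over all tested transcripts the 5 medians, glucose first, were 0.05, -0.0026, -0.02, 0.29 and -0.04.

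Against reed canary grass 0 transcripts were called (0%), with 143 at an unadjusted p under 0.05 (1.39%) and a smallest edgeR adjusted p of 0.442. DESeq2 called 7, of which 2 were higher on corn stover and 5 lower. The 95% interval of the log2 fold change lay within 2-fold either way for 1898 transcripts (18.4%) and within 4-fold for 8866 (85.9%). For most transcripts the interval reached past 2-fold, so that a missed threshold does not show equal levels.

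Against switchgrass 1 transcript was called, higher on corn stover (0.00969%), with 627 at an unadjusted p under 0.05. Locus8447v1rpkm1.73 had 11.3 and 11.1 CPM on corn stover, against 1.74, 1.34 and 1.72 CPM on switchgrass, a log2 fold change of 2.80 ± 0.43 (SE, edgeR adjusted p = 0.0202). In edgeR the call was lost with DESeq2's size factors (adjusted p = 0.0782) and with library size (0.623). It was also lost without maltose 3 (0.050034) and without any 1 of the switchgrass libraries (0.139 to 0.493). Without corn stover 1 or 2 the log2 fold change was 2.87 or 2.92, from a single corn stover library. DESeq2 itself kept the call (adjusted p = 0.000193). So did edgeR with only the groups compared (0.00223), no filter on low counts (0.00435), the replicate block (0.0156) or Avicel 1 left out (0.00139). Reed canary grass had 3.28 ± 0.508 CPM of this transcript and glucose 1.37 ± 0.716 CPM, while Avicel reached 8.53 ± 5.19 CPM (SD, n = 3 each). The Avicel libraries overlapped with corn stover in TMM-scaled CPM only. In TPM they had 0.41, 2.79 and 5.41, against 7.32 and 8.48 on corn stover. When only the corn stover and switchgrass libraries entered the fit, 290 transcripts were called, 115 higher and 175 lower on corn stover, and DESeq2 called 18, 5 higher and 13 lower. Within 2-fold lay the intervals of 10.8% of the transcripts and within 4-fold those of 79.1%.

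**Figure D5:**
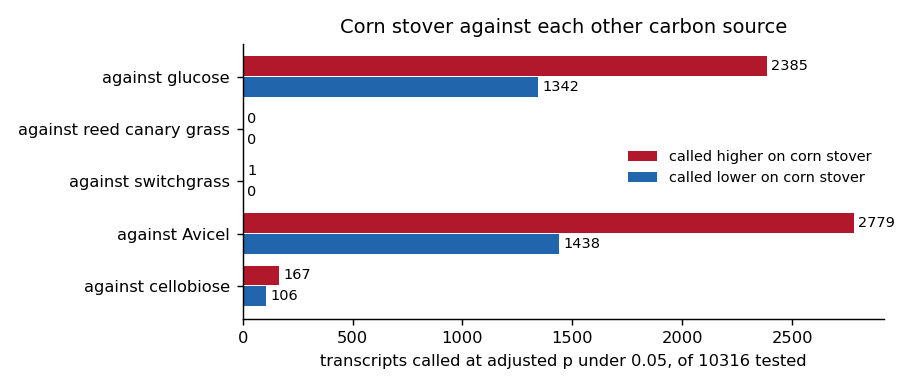
Number of transcripts called at an edgeR adjusted p under 0.05, of 10316 tested (horizontal axis), when corn stover is set against each of 5 other carbon sources; red bars are called higher on corn stover and blue bars lower. Glucose gives 3727 calls in all, reed canary grass 0, switchgrass 1, Avicel 4217 and cellobiose 273.

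Against Avicel, purified cellulose, 2779 transcripts were higher on corn stover (26.9%) and 1438 lower (13.9%), in all 4217 (40.9%). With library size alone the split was 4512 higher and 190 lower, and with DESeq2's size factors it was 3899 higher and 872 lower. Without corn stover 2 there were 2574 calls, 1958 higher and 616 lower, without corn stover 1 there were 2135 higher and 789 lower, and with only the corn stover and Avicel libraries 2206.

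Locus757v1rpkm130.85 showed the largest rise against Avicel, with 975.3 and 745 CPM on corn stover, against 2.81, 1.77 and 1.52 CPM on Avicel (log2 fold change 8.75 ± 1.44, SE, edgeR adjusted p = 0.000241). It ranked 160 by mean CPM among the tested transcripts on corn stover. Reed canary grass had 503 ± 159 CPM and switchgrass 320 ± 27.4 CPM (SD, n = 3 each), while the glucose libraries had 2.79, 0.576 and 75.6 CPM, again with glucose 3 on top. Locus1024v1rpkm86.45 had 395 and 310 CPM on corn stover, against 0.825, 3.37 and 3.37 CPM on Avicel, a log2 fold change of 7.08 ± 0.83 (SE, edgeR adjusted p = 6.92e-06). On the other grasses it averaged 224 ± 39.3 CPM (reed canary grass) and 125 ± 19.8 CPM (switchgrass), and on cellobiose, between corn stover and Avicel, 21.1 ± 6.31 CPM (SD, n = 3 each). Glucose 1, 2 and 3 had 2.60, 12.3 and 40.3 CPM, so that glucose 1 lay within the range of the Avicel libraries.

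Locus5858v1rpkm4.17 had no counts in either corn stover library, against 7.10, 9.80 and 15.5 CPM on Avicel, so it was at least 185-fold lower on corn stover when set against 3 counts over the 2 libraries (edgeR adjusted p = 4.51e-06). Without corn stover 1 or 2 the bound was 98.5-fold or 87.0-fold. In no library off Avicel did it exceed 1.25 CPM. Version v1 of Locus16 held 360644 and 591325 expected counts on corn stover, and 493812, 474477 and 383439 on Avicel. Reads shared between versions make the values of each one uncertain. Locus16v2rpkm1029.98 had 0.248 and 0.365 CPM on corn stover, against 2819, 0.402 and 0.674 CPM on Avicel (17083 expected counts in Avicel 1). Its call (edgeR adjusted p = 0.0118) rests on Avicel 1, since without that library the log2 fold change was -0.79 ± 0.73 (adjusted p = 0.418), and it was also lost without corn stover 1 (0.0916) or corn stover 2 (0.0953).

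Against cellobiose far fewer transcripts were called in the fit to all 20 libraries. There 167 were higher on corn stover (1.62%) and 106 lower (1.03%), in all 273 (2.65%), with 1923 at an unadjusted p under 0.05. This count was unstable. DESeq2 called 636 higher and 172 lower, DESeq2's size factors inside edgeR 358 and 104, library size alone 39 and 52, and only the 5 libraries compared 916 and 368. In that last setting the calls were 1284 against cellobiose, beside 2206 against Avicel and 3030 against glucose, each from its own libraries. Without corn stover 1 there were 59 calls, without corn stover 2 there were 85, without cellobiose 1 there were 84, without cellobiose 3 there were 96 and without Avicel 1 there were 597.

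Locus339v1rpkm435.13 had 3897 and 2428 CPM on corn stover, against 37.4, 13.3 and 5.40 CPM on cellobiose (log2 fold change 7.40 ± 1.22, SE, edgeR adjusted p = 0.00278, and 8.40 without cellobiose 1). It ranked 52 by mean CPM on corn stover and was also abundant on reed canary grass (1667 ± 227 CPM) and switchgrass (1296 ± 183 CPM; SD, n = 3 each). In glucose 1, 2 and 3 it had 15.9, 18.7 and 335 CPM. Locus757v1rpkm130.85, named above against Avicel, had 12.1, 11.2 and 7.42 CPM on cellobiose (log2 fold change 6.39 ± 1.29, SE, edgeR adjusted p = 0.0152). That call was lost without corn stover 1 and without any 1 of the cellobiose libraries (0.052 to 0.0838).

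Locus2173v1rpkm26.32 and Locus3999v1rpkm9.15 were the transcripts that fell most against cellobiose. The first had 0.0414 and 0.183 CPM on corn stover, against 35.6, 10.6 and 17.2 CPM on cellobiose (log2 fold change -7.44 ± 0.89, SE, edgeR adjusted p = 7.17e-05). Leaving out corn stover 1, corn stover 2 or cellobiose 1 gave -6.81, -8.77 and -6.83. No other carbon source averaged more than 1.16 CPM of it, glucose included. The second had 4.14 and 5.01 CPM on corn stover, against 246, 554 and 280 CPM on cellobiose (log2 fold change -6.30 ± 1.20, SE, edgeR adjusted p = 0.00718), and the call was lost without corn stover 1 (0.141) or corn stover 2 (0.102). Glucose held 80.4, 233 and 147 CPM of the second, and against glucose it was also lower on corn stover (-5.07 ± 1.13, SE, edgeR adjusted p = 0.00199).

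The called transcripts were also described by their length and by the versions of their loci. Length is not apart from the calls, which rest on expected counts that are not corrected for it. Transcript length is not in the files, but the ratio of expected count to TPM within a library follows it, and gave a relative length for 91.7% of the tested transcripts (median near 1 over all, at least 1 TPM required). The median relative length was 1.10 for the transcripts called higher on corn stover, 0.942 for those called lower and 0.999 for those not called. In 4 length classes of equal size, from the shortest to the longest, 21.8, 21.3, 26.4 and 26.0% of the transcripts were called higher. The shares called lower were 13.4, 15.3, 13.0 and 11.8% in the same order. The share called higher was thus a few points larger in the longer classes, a difference that was not tested.

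Identifiers carry a version number, and 500 loci had more than 1 tested version. In 45 of them every tested version was called higher on corn stover and in 27 every tested version was called lower. Of the 1103 tested versions of these loci, 193 were called higher and 132 lower, together 29.5%, beside 36.9% of the transcripts that are the only tested version of their locus. In 4 loci 1 version was called higher and another lower. The most abundant of these had a main version at 5256 and 4617 CPM on corn stover, against 13027, 17396 and 19674 CPM on glucose (log2 fold change -1.76 ± 0.47, SE, edgeR adjusted p = 0.00604, lost without corn stover 2 at 0.075). Its other version, whose identifier ends in PRE, had 39.0 and 98.1 CPM on corn stover, against 2.48, 6.14 and 15.5 CPM on glucose (log2 fold change 3.10 ± 0.58, SE, edgeR adjusted p = 0.000392, 2.31 without corn stover 2 and 4.003 without glucose 3). The sources used here do not say what PRE stands for. Of 243 tested identifiers that end in it, 37 were called higher (15.2%) and 19 lower (7.82%), beside 23.1% and 13% of all tested transcripts. Reads shared between versions make the split within a locus uncertain.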

How the data were processed

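Per the labels' protocols, a Qiagen RNeasy Mini kit gave the RNA and an Illumina TruSeq Stranded mRNA preparation the libraries. The authors deposited expected counts, estimated by RSEM per the submitters' processing notes, which state no version; 10.4% of the values were not whole (tolerance 1e-09). The authors also deposited TPM, which corrects the same estimates for transcript length. An aligner, a reference and read filters are not given in the sources used. No 2 libraries of corn stover or of glucose agreed within sampling noise (chi-square per degree of freedom of 52.4 to 141). The lowest value was for glucose 1 and 3, and the highest for glucose 2 and 3.

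Expected counts were rounded to whole numbers and filtered with filterByExpr of edgeR 4.0.16 in R 4.3.3 (minimum count 10, minimum total 15), which left 96.5 to 100% of each library's counts. Libraries were scaled by TMM. A robust quasi-likelihood model was fitted to all 20 A. robustus libraries with 1 mean per carbon source (13 residual degrees of freedom, biological coefficient of variation 0.388), because corn stover has only 2 libraries. P-values were adjusted by Benjamini and Hochberg over all 10316 transcripts, and transcripts were called under 0.05. Standard errors were taken from the log2 fold change and its F statistic. Shares of expected counts cover all transcripts of a library. Intervals are at 95%, and bounds on transcripts with no counts in a group use 3 counts over its libraries and cover counting error only.

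The transcripts named were, for each comparison, the 2 strongest rises and the 2 strongest falls among those called, with a mean of at least 10 CPM in the higher group and no overlap between libraries. The most abundant called transcripts and versions that moved apart are described without identifiers. The versions were chosen after their values were seen. The libraries, lists and tests were chosen with earlier results of these data known.

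Alternatives were DESeq2 1.42.0, its size factors inside edgeR, library size alone, no filter on low counts, a 2-fold minimum, only the libraries compared, the replicate number as a block, counts summed per locus, and leaving out single libraries. The steps were tested on simulated data in which few transcripts changed, in equal numbers up and down. Such data meet the assumption of TMM, so that test does not cover the scaling of the uneven changes found here.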

Additional observations from a re-analysis of the deposited data

Results flagged for a closer look

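Against glucose, each carbon source has its own effect, and a direct test between corn stover and another carbon source is a test of the difference between their effects. For Locus8447v1rpkm1.73 the effect on corn stover exceeded that on switchgrass by 2.80 on the log2 scale (edgeR adjusted p = 0.0202). It was at 11.3 and 11.1 CPM on corn stover and at 1.34 to 1.74 CPM on switchgrass, so both of 2 corn stover libraries were higher. As given above, the call was lost under both other scalings in edgeR (adjusted p = 0.0782 and 0.623) and without any 1 of the switchgrass libraries. DESeq2 itself kept the call (adjusted p = 0.000193).

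The effects on corn stover and on cellobiose differed in 273 transcripts, of which 167 were higher on corn stover and 106 lower. That count was unstable, at 91 with library size alone and 1284 with only the groups compared. The effects on corn stover and on Avicel differed in 4217 transcripts, 2779 of them higher on corn stover and 1438 lower. Groups of 2 or 3 libraries are too small for a test of single outlying libraries.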

How the results depend on the processing

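Against glucose, corn stover gave 3727 calls, and leaving out 1 library gave 2147 (without corn stover 2) to 4413 (without Avicel 1), with the other settings between 2915 and 4223. Against reed canary grass DESeq2 gave 7 calls and each of the edgeR settings tried gave 0. Against switchgrass, with 1 call, the values were 18 with DESeq2, 0 with its size factors inside edgeR, 0 with library size alone, 290 with only the groups compared, 2 with counts summed per locus, and 0 to 2 when 1 library was left out. Against Avicel, with 4217 calls, only the groups compared gave 2206 and leaving out 1 library gave 2574 to 4783. Against cellobiose, with 273 calls, the values were 808 with DESeq2, 462 with its size factors, 91 with library size alone, 1284 with only the groups compared, 435 with counts summed per locus, and 59 to 597 when 1 library was left out. A fit that drops 1 corn stover library leaves a single one, which is assumed to vary like the other groups. The shares of the top 10 and top 100 transcripts differed by -3.14 and -3.23 points in TPM, and by -7.28 to -6.58 and -9.35 to -6.87 points when 1 library was left out. The set of the reed canary grass and switchgrass libraries against maltose gave 5092 calls, 5330 without maltose 3, 5103 without glucose 3 and 7481 with library size alone, settings chosen after seeing the data. For the 12 transcripts named with identifiers, 140 of 161 checks kept direction and call and 21 lost the call. For the 6 described without identifiers, 72 of 78 kept both and 6 lost the call. In neither set did any turn direction, and DESeq2 gave no adjusted p for 4. Except where fewer libraries entered, the cause was not tested. Corn stover and glucose share 2 replicate numbers, whose libraries did not deviate together (correlations of -0.04 and -0.22). The replicate block gave 3406 calls against glucose, 0 against reed canary grass, 1 against switchgrass, 3900 against Avicel and 208 against cellobiose, and Locus721v1rpkm140.98 had a log2 fold change of 6.48. Depth limits the rarest transcripts most, and with 2 corn stover libraries the spread within that group rests on a single difference.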
